A study of Mus musculus with 6 samples.

Results

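Calprotectin and granule genes of neutrophils are described here across hearts under pressure overload, with and without activation of vagal neurones. The 10 genes are S100a8, S100a9, Ngp, Retnlg, Lcn2, Ly6g, Camp, Ltf, Mmp8 and Csf3r, and all 10 were found by NCBI gene ID among the 18019 genes of the deposited table. They were selected on the FPKM values of these same VNS-TAC and Ctrl-TAC libraries, so their differences are given as a description and without a test. Gene expression was measured by RNA sequencing of heart tissue taken 8 weeks after transverse aortic constriction (TAC), an operation that narrows the aorta and makes the left ventricle pump against raised pressure. The 3 VNS-TAC libraries came from wild-type mice with TAC that had received an adeno-associated virus in the dorsal vagal motor nucleus of the brainstem, carrying the light-gated channel ChR2 (variant H134R) fused to enhanced GFP behind the ChAT promoter, which is active in cholinergic neurones. The 3 Ctrl-TAC libraries came from wild-type mice with TAC that had received the same kind of virus with GFP alone behind that promoter. Columns of the VNS-TAC libraries are headed X10Hz_TAC and those of Ctrl-TAC con_TAC, but the treatment tag reads VNS for all 6 samples. All 6 hearts were therefore overloaded, and no heart without TAC was analysed here. The labels give neither the age of the mice nor whether a library is a single animal, so the spread between libraries may be partly technical.

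Neutrophils are short-lived white blood cells that are made in bone marrow and enter injured tissue from the blood. They store antimicrobial proteins in granules that are filled in sequence during maturation: azurophil granules first, with myeloperoxidase and elastase, then specific granules with lactoferrin and cathelicidin, then gelatinase granules. Calprotectin, a pair of calcium-binding proteins encoded by S100a8 and S100a9, fills the cytosol of the mature cell, is released on activation and signals through receptors such as TLR4. In the infarcted and overloaded heart, neutrophils are among the first cells to be recruited.

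The VNS-TAC libraries did not resemble each other closely. Across 11422 genes averaging at least 1 FPKM (fragments per kilobase of gene, scaled to library size), they correlated at 0.941 to 0.979 with each other. The Ctrl-TAC libraries correlated at 0.988 to 0.992 with each other. VNS-TAC 2 correlated at 0.983 to 0.987 with the Ctrl-TAC libraries, above its correlations with VNS-TAC 1 and 3. VNS-TAC 1 and 3 were each closest to VNS-TAC 2, but closer to every Ctrl-TAC library than to each other. On principal component 1, VNS-TAC 3 stood at 46.4 and the other 5 libraries between -16.6 and 4.64, and on component 2 VNS-TAC 1 stood at 36.5. Depth, estimated from the steps between low values, was about 14380000 to 15860000 fragments in VNS-TAC hearts and 13400000 to 14640000 in Ctrl-TAC. The heart muscle marker Myh6, the main myosin of mouse heart muscle, was abundant in all 6 libraries, at 3212 to 6324 FPKM in VNS-TAC hearts and 4539 to 5805 FPKM in Ctrl-TAC.

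For each of the 10 genes, all 3 VNS-TAC libraries lay above all 3 Ctrl-TAC libraries. Of all 17655 genes with a value above 0 in any library, 6.1% were arranged this way, and the members were picked for this difference. The median difference of the 10 genes was 1.29 on the log2(FPKM + 1) scale, against -0.04 over those 17655 genes. With a library left out in turn, that median ranged from 1.26 to 1.48. The summed FPKM of the 10 genes reached 69.4, 56.6 and 183 in VNS-TAC 1, 2 and 3, against 6.45, 8.38 and 4.90 in Ctrl-TAC 1, 2 and 3. A bulk library cannot tell more neutrophils from more RNA of these genes per cell. Low genes were kept: 6 of the 10 had a mean of at least 1 FPKM, while Ly6g, Camp, Ltf and Mmp8 stood below it.

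**Figure D1:**
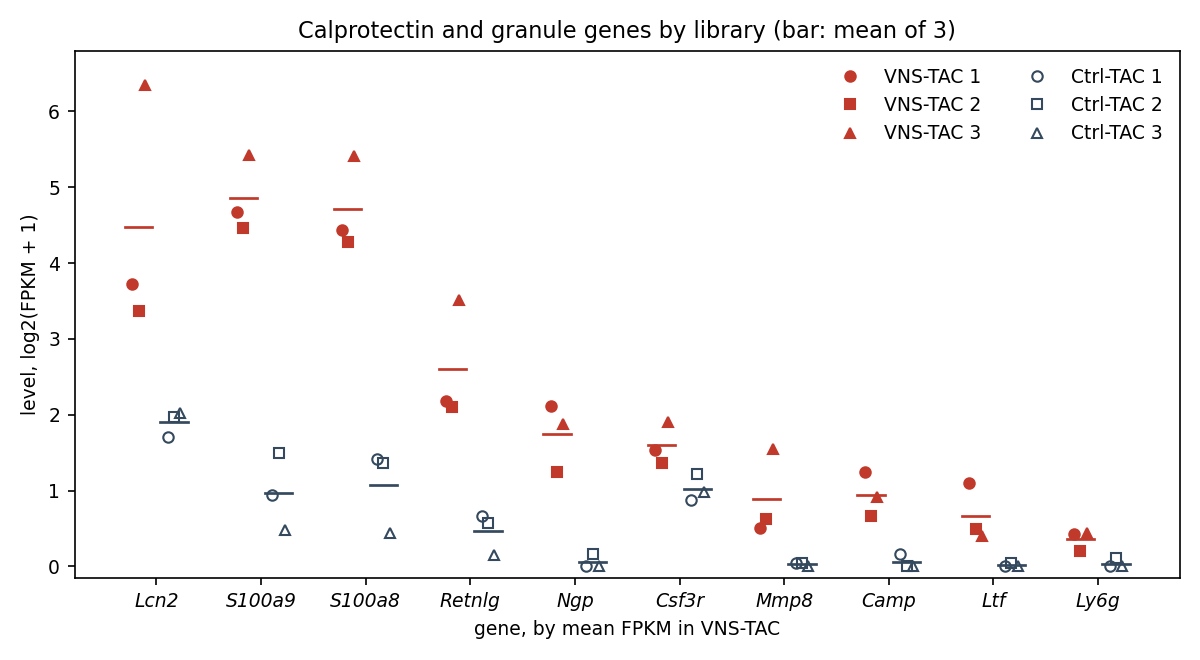
Level of each gene as log2(FPKM + 1) in the 3 VNS-TAC libraries (filled red) and the 3 Ctrl-TAC libraries (open dark), with the horizontal line at the mean of 3. Every VNS-TAC point lies above every Ctrl-TAC point of the same gene, with the narrowest gap at Csf3r (1.57 against 1.32 FPKM).

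The calprotectin genes had the largest differences on the log2(FPKM + 1) scale. By the ratio of group means, Ltf (62.3), Ngp (61.6) and Mmp8 (48.2) stood above S100a9 (27.8). Camp (23.6) stood above S100a8 (22.4) by that ratio. Those ratios of Ltf, Ngp, Mmp8 and Camp rest on Ctrl-TAC means of at most 0.04 FPKM. In plain FPKM, Lcn2 differed most, with a mean of 33.9 in VNS-TAC and 2.75 in Ctrl-TAC. S100a8, on chromosome 3 (90669071 to 90670034, GRCm38), stood at 20.6, 18.4 and 41.7 FPKM in VNS-TAC 1, 2 and 3, and at 1.68, 1.57 and 0.36 FPKM in Ctrl-TAC 1, 2 and 3. S100a9, whose product is the partner of S100A8 (chromosome 3, 90692630 to 90695721), stood at 24.6, 21.0 and 42.0 FPKM in VNS-TAC hearts and at 0.93, 1.83 and 0.39 FPKM in Ctrl-TAC. The groups were far apart for both genes, since the lowest VNS-TAC library was 10.97 times the highest Ctrl-TAC library for S100a8 and 11.5 times for S100a9. The log2 fold change was 3.63 ± 0.37 (SE) for S100a8 and 3.88 ± 0.33 for S100a9, which placed them second and first of the 11422 genes by this measure. In fragments, S100a8 was backed by about 226, 184 and 441 in VNS-TAC hearts and by about 17, 15 and 4 in Ctrl-TAC.

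The calprotectin genes stood at similar FPKM in each VNS-TAC library. S100a8 divided by S100a9 gave 0.836, 0.879 and 0.994 in VNS-TAC 1, 2 and 3, against 1.81, 0.858 and 0.923 in Ctrl-TAC 1, 2 and 3. The Ctrl-TAC ratios rest on few fragments, with about 7, 13 and 3 for S100a9. The genes lie 22.6 kb apart, and no other gene of the table lies between them. The rest of the S100 family, mostly encoded in the same stretch of chromosome 3, is described with the other lists.

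Promoter sequences show what else the genes share. The windows below run from 250 bases before to 50 bases after the annotated start site (RefSeq, GRCm38.p6), 5′ to 3′ in the direction of the gene, and were searched on both strands for 4 motifs. Capitals mark matches to TTGCNNAA, a core bound by C/EBP factors, to GAGGAA, a core bound by ETS factors such as PU.1, and to the TATA box TATAAA, in the letters of either strand. The 6 genes shown are the calprotectin pair and the granule genes whose windows held a C/EBP match.
S100a8, chr3:90668821-90669120, plus strand: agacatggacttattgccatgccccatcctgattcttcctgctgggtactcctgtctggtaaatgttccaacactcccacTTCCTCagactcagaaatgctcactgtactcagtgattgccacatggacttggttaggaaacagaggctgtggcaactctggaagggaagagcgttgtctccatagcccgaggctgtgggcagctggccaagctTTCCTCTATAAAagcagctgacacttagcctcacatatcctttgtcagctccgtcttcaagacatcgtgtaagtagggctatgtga
S100a9, chr3:90695672-90695971, minus strand: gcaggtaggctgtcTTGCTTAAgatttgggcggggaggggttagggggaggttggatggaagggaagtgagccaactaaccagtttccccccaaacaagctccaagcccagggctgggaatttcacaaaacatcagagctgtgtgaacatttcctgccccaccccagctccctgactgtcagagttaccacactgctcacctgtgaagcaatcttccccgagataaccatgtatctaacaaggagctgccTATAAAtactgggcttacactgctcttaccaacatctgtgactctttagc
Ngp, chr9:110419558-110419857, plus strand: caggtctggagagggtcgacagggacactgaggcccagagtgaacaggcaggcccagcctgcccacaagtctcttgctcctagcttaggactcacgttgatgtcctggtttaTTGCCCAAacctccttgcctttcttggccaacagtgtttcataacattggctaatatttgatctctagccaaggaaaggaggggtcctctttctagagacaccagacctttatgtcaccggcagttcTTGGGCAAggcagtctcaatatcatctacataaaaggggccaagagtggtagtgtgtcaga
Ltf, chr9:111019042-111019341, plus strand: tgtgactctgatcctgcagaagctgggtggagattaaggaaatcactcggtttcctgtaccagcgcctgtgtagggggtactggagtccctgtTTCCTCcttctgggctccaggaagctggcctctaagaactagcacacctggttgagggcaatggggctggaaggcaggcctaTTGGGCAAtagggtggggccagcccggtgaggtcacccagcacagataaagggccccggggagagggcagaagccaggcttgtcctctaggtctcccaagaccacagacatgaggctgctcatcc
Lcn2, chr2:32387690-32387989, minus strand: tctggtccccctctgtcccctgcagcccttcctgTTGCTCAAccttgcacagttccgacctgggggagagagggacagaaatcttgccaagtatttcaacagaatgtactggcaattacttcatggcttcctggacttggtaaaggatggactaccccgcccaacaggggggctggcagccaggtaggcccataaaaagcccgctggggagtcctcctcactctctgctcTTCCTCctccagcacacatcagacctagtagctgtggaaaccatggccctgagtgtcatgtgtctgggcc
Mmp8, chr9:7558179-7558478, plus strand: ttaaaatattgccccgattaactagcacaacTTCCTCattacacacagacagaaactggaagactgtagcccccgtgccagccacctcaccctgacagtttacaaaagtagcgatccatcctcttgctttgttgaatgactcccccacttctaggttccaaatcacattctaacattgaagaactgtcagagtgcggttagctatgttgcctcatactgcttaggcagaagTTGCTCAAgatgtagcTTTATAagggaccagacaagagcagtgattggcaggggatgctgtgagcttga
In S100a8 the ETS match and the TATA box adjoin without overlap, so they read as a single run of capitals.

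C/EBP factors, C/EBP epsilon above all, are known in mice to be needed for specific granule genes. The TTGCNNAA core occurred in the windows of 7 of the 10 genes (S100a9, Ngp, Ltf, Lcn2, Mmp8, Ly6g and Retnlg). The share was 12.2% among 27025 genes with an annotated promoter, whether measured here or not. It was 9.9% among the 9113 with a mean of at least 1 FPKM. Ngp carried 2 matches, at -138 and -11 bases from its start. The ETS core occurred in 6 of the 10 genes, against 31.3% of those 27025 genes. The TATAAA string occurred in 4 of the 10, against 15.7%. It began at -30 bases in S100a8, 0 in S100a9 and -99 from the first Ly6g start. In Mmp8 it lay at -3 on the opposite strand. The STAT motif TTCNNNGAA occurred in none of the 10, against 9.55% of those 27025 genes, and Camp held no match to any of the 4 motifs. A match is a string of letters, and binding was not tested.

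**Figure D2:**
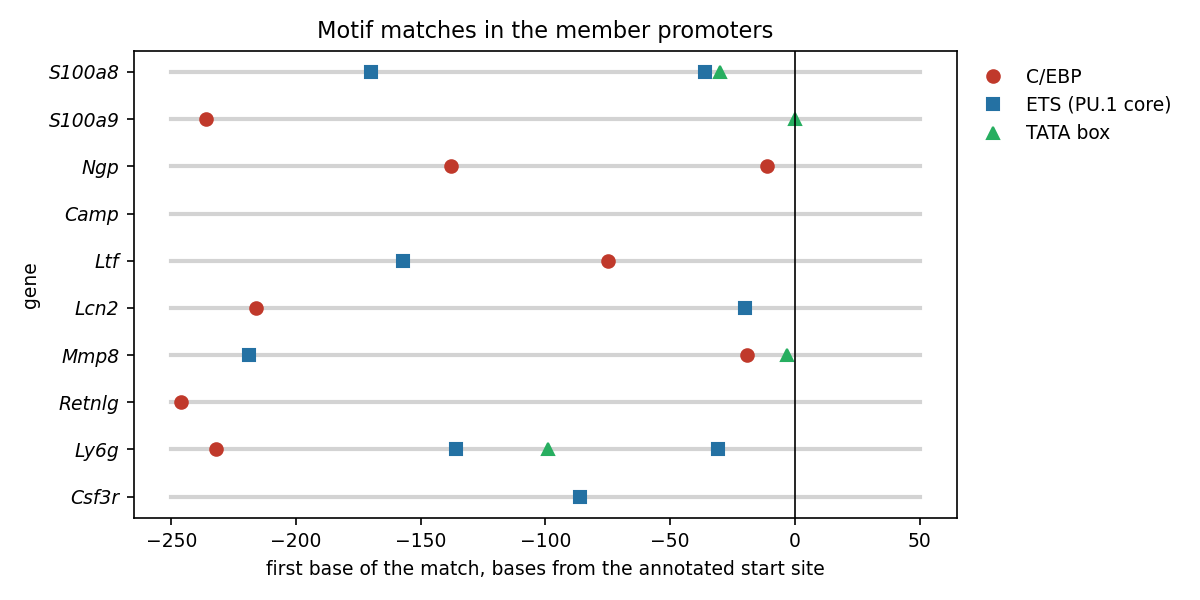
Position of the first base of each motif match from the annotated start site, in bases, for the 10 genes, with a marker for each of 3 motifs; for Ly6g, the first of 2 listed start sites is drawn. C/EBP matches are present in 7 genes at varied distances, and Camp has none of the 3.

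The granule genes Ngp, Camp and Ltf were detected in every VNS-TAC library and were at or near 0 in Ctrl-TAC hearts. Ngp, neutrophilic granule protein (chromosome 9, 110419808 to 110423012), stood at 3.34, 1.38 and 2.67 FPKM in VNS-TAC 1, 2 and 3, and at 0, 0.12 and 0 FPKM in Ctrl-TAC 1, 2 and 3. Camp, the precursor of the antimicrobial peptide cathelicidin (chromosome 9, 109847377 to 109849456), stood at 1.37, 0.58 and 0.88 FPKM in VNS-TAC hearts and at 0.12, 0 and 0 FPKM in Ctrl-TAC. Ltf, the iron-binding protein lactoferrin (chromosome 9, 111019292 to 111042766), stood at 1.14, 0.41 and 0.32 FPKM in VNS-TAC hearts and at 0, 0.03 and 0 FPKM in Ctrl-TAC. For these 3 genes VNS-TAC 1 was the highest library, and at most 1 Ctrl-TAC library was above 0. In Ctrl-TAC the values above 0 correspond to about 2 fragments of Ngp and 1 each of Camp and Ltf, whereas VNS-TAC 1, 2 and 3 held about 65, 24 and 50 fragments of Ngp and about 16, 6 and 10 of Camp. Differences on the log2 scale were 1.69 for Ngp, 0.88 for Camp and 0.65 for Ltf, and with a pseudocount of 0.1 in place of 1 they were 4.21, 2.93 and 2.56, so their size depends on that choice.

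Lcn2 and Mmp8 were dominated by VNS-TAC 3. Lcn2 encodes lipocalin 2, a granule protein that binds bacterial siderophores and that other cell types also make in inflammation (chromosome 2, 32384637 to 32387739). It stood at 12.2, 9.31 and 80.4 FPKM in VNS-TAC 1, 2 and 3, and at 2.27, 2.91 and 3.07 FPKM in Ctrl-TAC 1, 2 and 3. VNS-TAC 3 was 8.63 times VNS-TAC 2, the widest spread among the VNS-TAC libraries of any of the 10 genes. The log2 fold change of Lcn2 was 2.58, and 1.64 without VNS-TAC 3. Mmp8, neutrophil collagenase (chromosome 9, 7558429 to 7568486), stood at 0.42, 0.54 and 1.93 FPKM in VNS-TAC hearts and at 0.03, 0.03 and 0 FPKM in Ctrl-TAC. Its difference on the log2 scale was 0.86, 0.54 without VNS-TAC 3, and 2.88 with a pseudocount of 0.1.

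Retnlg, Ly6g and Csf3r encode a secreted protein and membrane proteins of neutrophils. Retnlg, resistin-like gamma (chromosome 16, 48872608 to 48874498), stood at 3.52, 3.31 and 10.4 FPKM in VNS-TAC 1, 2 and 3, and at 0.58, 0.49 and 0.11 FPKM in Ctrl-TAC 1, 2 and 3, a log2 fold change of 2.14 ± 0.37 (SE), or 3.53 with a pseudocount of 0.1. Ly6g, the surface antigen used to define mouse neutrophils (chromosome 15, 75155261 to 75159128), stood at 0.34, 0.15 and 0.36 FPKM in VNS-TAC hearts and at 0, 0.08 and 0 FPKM in Ctrl-TAC. That is about 5, 2 and 5 fragments against 0, 1 and 0, and Ly6g belongs to a family of similar genes between which reads could have been split. Csf3r, the receptor for granulocyte colony-stimulating factor (chromosome 4, 126023441 to 126044975), stood at 1.90, 1.57 and 2.74 FPKM in VNS-TAC hearts and at 0.84, 1.32 and 0.97 FPKM in Ctrl-TAC. The ratio of its group means was 1.98, and its groups had the narrowest margin of the 10 genes, 1.57 against 1.32 FPKM.

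The VNS-TAC libraries did not rank in the same order for all genes. VNS-TAC 3 was the highest library for S100a8, S100a9, Retnlg, Lcn2, Mmp8, Ly6g and Csf3r, and VNS-TAC 1 for Ngp, Camp and Ltf. VNS-TAC 2 was the lowest of the 3 for 8 of the 10, the exceptions being Mmp8 (lowest in VNS-TAC 1) and Ltf (lowest in VNS-TAC 3). The sum of Ngp, Camp and Ltf was 12.9%, 6.02% and 4.62% of the sum of S100a8 and S100a9 in VNS-TAC 1, 2 and 3, against 4.60%, 4.41% and 0% in Ctrl-TAC 1, 2 and 3, where at most 3 fragments of these genes lie behind a library. Lcn2 divided by S100a8 came to 0.591, 0.505 and 1.93 in VNS-TAC 1, 2 and 3, against 1.35, 1.85 and 8.53 in Ctrl-TAC 1, 2 and 3. Calprotectin made up 65.1%, 69.5% and 45.7% of the summed FPKM of the 10 genes in VNS-TAC hearts, and 40.5%, 40.6% and 15.3% in Ctrl-TAC. Csf3r divided by S100a8 was 0.092, 0.085 and 0.066 in VNS-TAC hearts and 0.50, 0.84 and 2.69 in Ctrl-TAC. About 17, 15 and 4 fragments of S100a8 lie behind the Ctrl-TAC values of the ratios to S100a8. All genes in these ratios were chosen on this contrast, so differences between the groups restate their fold changes. These ratios were not tested.

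**Figure D3:**
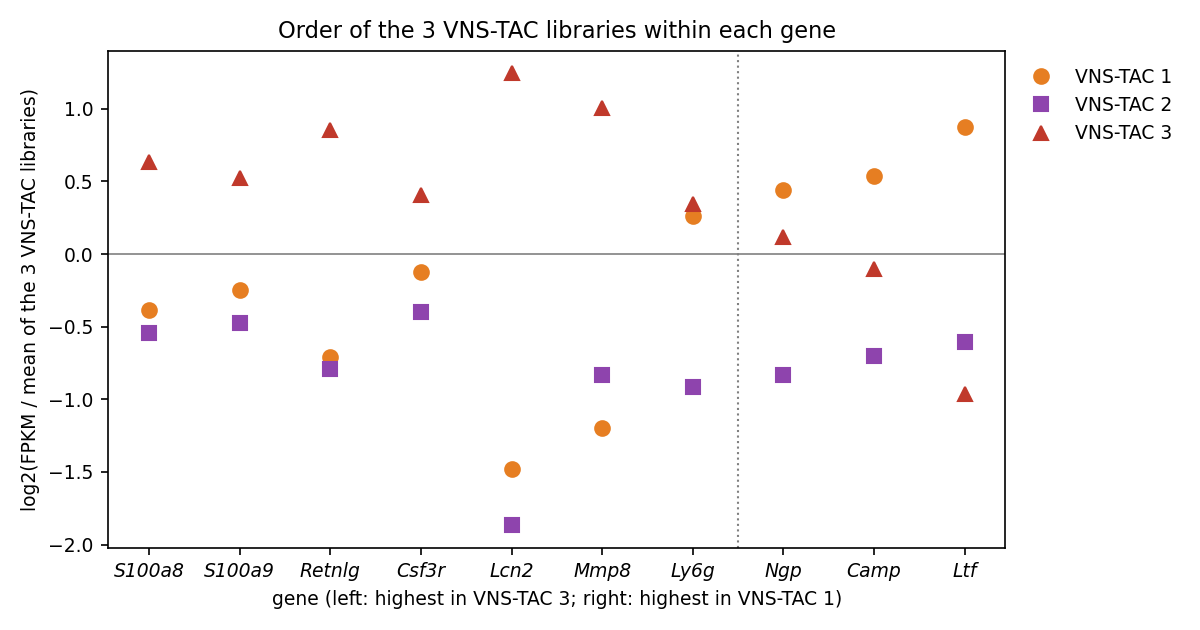
FPKM of each gene in each VNS-TAC library divided by the mean of the 3 VNS-TAC libraries, on a log2 axis; genes left of the dotted line were highest in VNS-TAC 3 and genes right of it in VNS-TAC 1. Lcn2 has the widest spread (8.63 times from VNS-TAC 2 to VNS-TAC 3), and VNS-TAC 2 is lowest for 8 of the 10 genes.

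Other genes of neutrophil biology were measured to set the members in context, in 8 lists holding 98 genes of the table, 50 of them with a mean of at least 1 FPKM. None of the 50 passed an adjusted p of 0.05 in limma over all 11422 genes (0% called), and the smallest adjusted p was 0.208. Without adjustment, limma gave 4 of them a p under 0.05 with higher and 3 with lower values, while over all genes those shares were 3.79% and 11.3% (1719 genes).

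Other granule proteins are given by granule type. The lists were chosen with earlier results of these data known, so counts without overlap are a description and no test. Of 18 detected genes of specific, gelatinase and secretory granules other than the members, 6 were without overlap and higher in VNS-TAC hearts and 1 lower, where 6.1% and 14.8% of all detected genes were so arranged; their median difference was 0.25 on the log2 scale. Lrg1, a glycoprotein of these granules that blood vessels and liver also make, stood at 37.9, 46.4 and 89.7 FPKM in VNS-TAC 1, 2 and 3, and at 22, 23.0 and 21.7 FPKM in Ctrl-TAC 1, 2 and 3 (limma adjusted p = 0.208). It was above every Ctrl-TAC library in all 3 VNS-TAC libraries and highest in VNS-TAC 3. Pglyrp1, a peptidoglycan-binding protein, stood at 1.48, 1.32 and 2.12 FPKM in VNS-TAC hearts and at 0.31, 0.11 and 0.30 FPKM in Ctrl-TAC. Cd177, a neutrophil surface glycoprotein, stood at 0.44, 0.15 and 0.44 FPKM in VNS-TAC hearts and was listed at 0 in Ctrl-TAC. Both were higher in every VNS-TAC library than in any Ctrl-TAC library, and both stood below the mean of 1 FPKM needed for the test. Mmp9, the gelatinase, stood at 1, 0.60 and 1.08 FPKM in VNS-TAC hearts and at 0.34, 0.38 and 0.29 FPKM in Ctrl-TAC, and the protease inhibitor gene Slpi stood at 0.61 to 1.16 FPKM in VNS-TAC hearts and 0 to 0.30 FPKM in Ctrl-TAC hearts. Chil3, a chitinase-like protein of neutrophils and macrophages, stood at 0.87, 0.22 and 8.97 FPKM in VNS-TAC hearts and at 0.04, 0 and 0 FPKM in Ctrl-TAC, with VNS-TAC 3 far above the rest (limma adjusted p = 0.355). Cybb, a subunit of the oxidase that makes superoxide, was at 1.11 to 1.65 FPKM in VNS-TAC hearts and 1.72 to 2.15 FPKM in Ctrl-TAC, the opposite arrangement (limma adjusted p = 0.352).

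Azurophil granule genes, which are transcribed in early precursors in the marrow, were near 0 in both groups. Mpo, myeloperoxidase, was at 0.02, 0 and 0 FPKM in VNS-TAC hearts and at 0 in Ctrl-TAC. Elane, neutrophil elastase, was at 0, 0.07 and 0 FPKM in VNS-TAC hearts and at 0 in Ctrl-TAC. Prtn3 reached 0.31 FPKM in VNS-TAC hearts and 0.14 FPKM in Ctrl-TAC, and Ctsg reached 0.06 FPKM in VNS-TAC hearts and 0.07 FPKM in Ctrl-TAC hearts. The genes of this list above 1 FPKM, Srgn, Ctsc and Serpinb1a, are made by many other cells, and none had an unadjusted p under 0.05. Srgn stood at 20.3 to 26.1 FPKM in VNS-TAC hearts and 26.8 to 34.6 FPKM in Ctrl-TAC (limma adjusted p = 0.337), Serpinb1a at 0.95 to 2.42 FPKM in VNS-TAC hearts and 1.83 to 2.59 FPKM in Ctrl-TAC hearts, and Ctsc at 4.27 to 6.24 FPKM in VNS-TAC hearts and 5.03 to 6.97 FPKM in Ctrl-TAC hearts.

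Of 20 detected genes for surface receptors of mature neutrophils, 2 were without overlap and higher (Trem1 and Mrgpra2b, both at or under 0.20 FPKM) and 1 was lower (Tlr2), against 6.1% and 14.8% of all detected genes, with a median of 0.12 over the detected genes and -0.10 over the 8 with a mean of at least 1 FPKM. Cxcr2, the chemokine receptor that guides neutrophils out of the marrow and into tissue, stood at 0.76, 0.98 and 1.22 FPKM in VNS-TAC 1, 2 and 3, and at 0.89, 0.92 and 0.66 FPKM in Ctrl-TAC 1, 2 and 3, so the groups overlapped. Tlr2, a receptor for bacterial lipoproteins, stood at 1.09 to 1.86 FPKM in VNS-TAC hearts and 2.02 to 2.24 FPKM in Ctrl-TAC (limma adjusted p = 0.314). Fcgr4, an Fc receptor, stood at 1.13, 0.76 and 3.63 FPKM in VNS-TAC hearts and at 0.82, 0.58 and 0.32 FPKM in Ctrl-TAC (limma adjusted p = 0.362), and C5ar1, the receptor for complement C5a, stood at 2.49 to 5.40 FPKM in VNS-TAC hearts and 4.12 to 5 FPKM in Ctrl-TAC hearts (limma adjusted p = 0.552). Several receptors were high in VNS-TAC 3 alone, named after their values were seen: Il1r2, the decoy receptor for interleukin 1, was at 0.02, 0.05 and 1.95 FPKM in VNS-TAC hearts and at 0.04 to 0.19 FPKM in Ctrl-TAC. Likewise Clec4d was at 0.37, 0.45 and 3.49 FPKM in VNS-TAC hearts and at 0.20 to 0.75 FPKM in Ctrl-TAC.

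**Figure D4:**
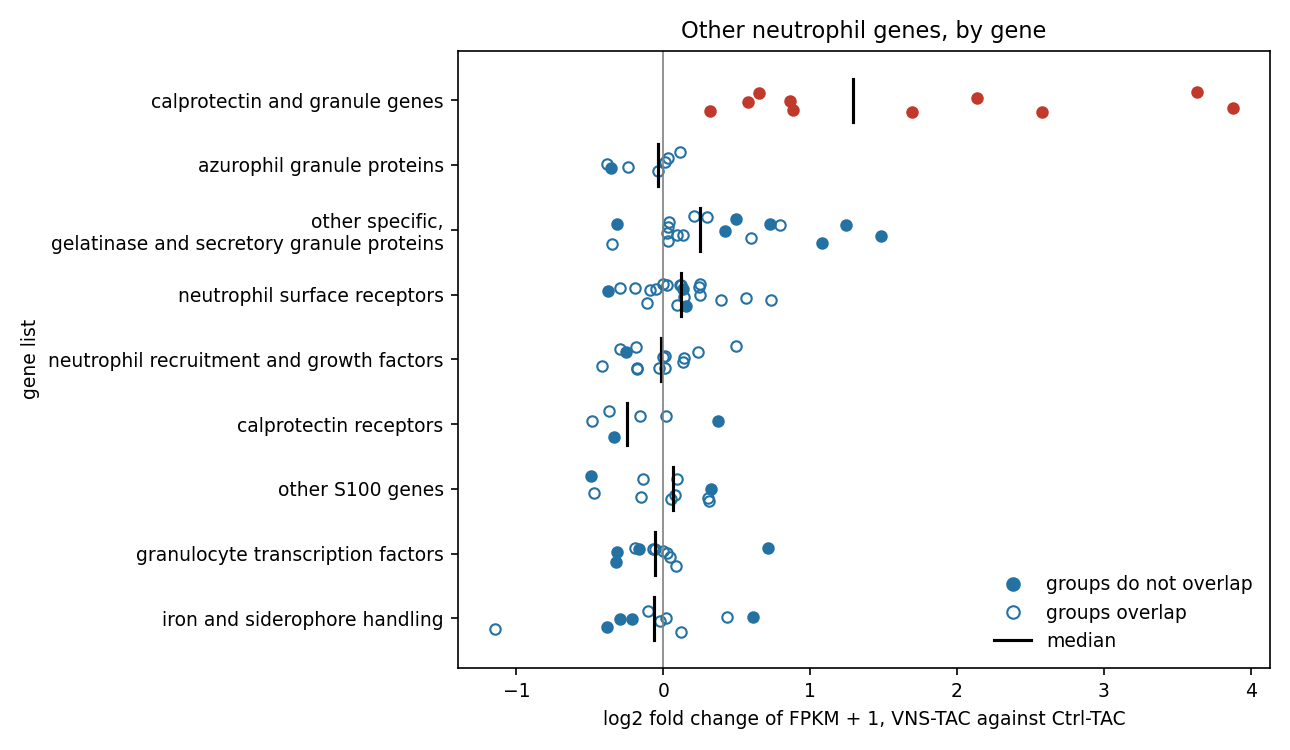
Difference of each detected gene between VNS-TAC and Ctrl-TAC on the log2(FPKM + 1) scale, by list, with the members in red and a black line at the median of each list; filled points are genes whose groups do not overlap, as all 10 members are. The median is 1.29 for the members and lies between -0.25 and 0.25 for the 8 other lists.

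Of 14 detected genes for signals that attract neutrophils or hold them at the vessel wall, none was without overlap and higher, and 1 was lower (Ccl3, at 0 to 0.09 FPKM in VNS-TAC hearts and 0.25 to 0.27 FPKM in Ctrl-TAC), against 6.1% and 14.8% of all detected genes. Cxcl1, a chemokine ligand of CXCR2, stood at 5.83, 0.92 and 1.81 FPKM in VNS-TAC 1, 2 and 3, and at 1.79, 2.18 and 2.15 FPKM in Ctrl-TAC 1, 2 and 3 (limma adjusted p = 0.892). VNS-TAC 1 was the highest of the 6 libraries and VNS-TAC 2 the lowest. Vcam1, an adhesion molecule of activated endothelium, stood at 5.43, 5.07 and 8.53 FPKM in VNS-TAC hearts and 8.50 to 8.69 FPKM in Ctrl-TAC (limma adjusted p = 0.346). Cxcl12, which retains neutrophils in the marrow, stood at 101.7, 60.7 and 31.6 FPKM in VNS-TAC hearts and 49.0 to 58.2 FPKM in Ctrl-TAC (limma adjusted p = 0.868). The VNS-TAC libraries lay on both sides of the Ctrl-TAC libraries for Cxcl12. Csf3, the ligand of CSF3R, was at or under 0.05 FPKM in all 6 libraries. Selp, P-selectin of endothelium and platelets, was at 0.45, 0.27 and 3.69 FPKM in VNS-TAC hearts and 0.36 to 0.66 FPKM in Ctrl-TAC.

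Of 6 calprotectin receptor genes detected, 1 was without overlap and higher (Bsg) and 1 lower (Ager), against 6.1% and 14.8% of all detected genes. Tlr4, the main signalling receptor, stood at 1.57, 2.79 and 3.58 FPKM in VNS-TAC 1, 2 and 3, and at 4.34, 4.26 and 3.36 FPKM in Ctrl-TAC 1, 2 and 3 (limma adjusted p = 0.352). Bsg, basigin, a membrane protein abundant in heart that also binds S100A9, stood at 1239 to 1347 FPKM in VNS-TAC hearts and 939 to 1050 FPKM in Ctrl-TAC (limma adjusted p = 0.268). Ager, the receptor RAGE, was at 0.21 to 0.42 FPKM in VNS-TAC hearts and 0.52 to 0.79 FPKM in Ctrl-TAC. Cd14, a co-receptor of TLR4, stood at 2.72 to 5.64 FPKM in VNS-TAC hearts and 4.88 to 6.84 FPKM in Ctrl-TAC hearts (limma adjusted p = 0.462). Of 10 detected S100 genes, 1 was without overlap and lower (S100b) and 1 higher (S100a3), against 14.8% and 6.1% of all detected genes. S100a3 stood at 0.18 to 0.30 FPKM in VNS-TAC hearts and was listed at 0 in Ctrl-TAC. S100a1, the S100 protein of heart muscle, stood at 793 to 1014 FPKM in VNS-TAC hearts and 795 to 973 FPKM in Ctrl-TAC. S100a10, S100a6 and S100a13, the 3 with the smallest p, had log2 fold changes of -0.47, 0.31 and 0.31 (limma adjusted p = 0.34, 0.362 and 0.398).

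Of 11 transcription factors of the granulocyte lineage, 1 was without overlap and higher (Cebpd) and 3 lower (Cebpa, Irf8 and Runx1), against 6.1% and 14.8% of all detected genes. Cebpe, encoding C/EBP epsilon, was at 0.05, 0 and 0.05 FPKM in VNS-TAC hearts and at 0 in Ctrl-TAC, and Gfi1 was at or under 0.05 FPKM in all 6 libraries. Cebpd, an inflammation-induced C/EBP gene that many tissues express, stood at 19.2, 19.0 and 32.2 FPKM in VNS-TAC 1, 2 and 3, and at 13.7, 14.8 and 12.2 FPKM in Ctrl-TAC 1, 2 and 3 (limma adjusted p = 0.247). VNS-TAC 3 was again the highest library. Cebpa stood at 3.03 to 4.89 FPKM in VNS-TAC hearts and 4.97 to 5.82 FPKM in Ctrl-TAC (limma adjusted p = 0.399), and Irf8, a monocyte factor, at 2.58 to 4.35 FPKM in VNS-TAC hearts and 4.39 to 4.99 FPKM in Ctrl-TAC hearts (limma adjusted p = 0.412). Lactoferrin and lipocalin 2 both act on iron, and in the list of iron genes Fth1, the ferritin heavy chain, stood at 2266 to 2923 FPKM in VNS-TAC hearts and 1635 to 1780 FPKM in Ctrl-TAC (limma adjusted p = 0.225). Slc40a1, the iron exporter ferroportin, stood at 2.66 to 3.72 FPKM in VNS-TAC hearts and 4.17 to 5.11 FPKM in Ctrl-TAC hearts (limma adjusted p = 0.301), and Lrp1, a scavenger receptor, at 16.95 to 18.8 FPKM in VNS-TAC hearts and 20.7 to 24.7 FPKM in Ctrl-TAC hearts (limma adjusted p = 0.32). Of 10 iron genes detected, Fth1 was without overlap and higher and 3 were lower (Slc40a1, Lrp1 and Trf), against 6.1% and 14.8% of all detected genes. Slc22a17, a receptor for lipocalin 2, stood at 2.37 to 3.32 FPKM in VNS-TAC hearts and 2.40 to 3.91 FPKM in Ctrl-TAC.

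Red cell markers measure blood left in the tissue, and the summed FPKM of the 7 in the table came to 1504, 310 and 25.1 in VNS-TAC 1, 2 and 3, against 578, 272 and 183 in Ctrl-TAC 1, 2 and 3. VNS-TAC 3, highest for 7 of the 10 neutrophil genes, thus had the lowest red cell signal of the 6 libraries, and VNS-TAC 1, highest for Ngp, Camp and Ltf, had the highest. The leading red cell genes, Hba-a2, Alas2 and Hbb-bs, had limma adjusted p-values of 0.837, 0.837 and 0.843, and the haemoglobin genes have near-identical copies between which reads could have been split. Of 7 platelet markers detected, 1 was without overlap and higher (Gp9) and none lower, against 6.1% and 14.8% of all detected genes. Gp9 was at 0.54, 0.42 and 0.56 FPKM in VNS-TAC hearts and at 0.17, 0.18 and 0.08 FPKM in Ctrl-TAC. Pf4 was at 32.8, 16.1 and 8.37 FPKM in VNS-TAC hearts and 20.8 to 23.9 FPKM in Ctrl-TAC (limma adjusted p = 0.622). Gp1ba was at 0.77 to 1.83 FPKM in VNS-TAC hearts and 0.98 to 1.44 FPKM in Ctrl-TAC hearts. The part of blood in the results was not tested.

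S100a8 and S100a9 are also made by monocytes. Of 9 monocyte markers detected, 2 were without overlap and higher, Ly6c2 (1.02, 0.68 and 0.65 FPKM in VNS-TAC hearts and 0.20, 0.12 and 0.12 FPKM in Ctrl-TAC) and Plac8 (1.62, 0.50 and 1.42 FPKM in VNS-TAC hearts and 0.40, 0.32 and 0.49 FPKM in Ctrl-TAC), and 3 were lower (Ace, Vcan and Cx3cr1), against 6.1% and 14.8% of all detected genes. The summed FPKM of the 9 was 37.5 to 42.7 in VNS-TAC hearts and 59.6 to 62.5 in Ctrl-TAC hearts, with no marker at 0 in all libraries and with Ace making up most of the sum in every library. The part of monocytes in the results was not tested. Ccr2, the receptor that brings monocytes into tissue, overlapped at 0.25 to 0.60 FPKM in VNS-TAC hearts and 0.42 to 0.73 FPKM in Ctrl-TAC. Ace, also expressed outside monocytes, stood at 20.4 to 25.5 FPKM in VNS-TAC hearts and 37.4 to 40.4 FPKM in Ctrl-TAC hearts (limma adjusted p = 0.156). Vcan, which fibroblasts express too, stood at 1.18 to 2.40 FPKM in VNS-TAC hearts and 3.20 to 5.62 FPKM in Ctrl-TAC hearts (limma adjusted p = 0.232).

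Of 8 macrophage markers, 2 were without overlap and lower (Lyve1 and Mrc1, limma adjusted p = 0.337 and 0.366), where 14.8% of all detected genes were so arranged, and Adgre1 stood at 1.55 to 4.64 FPKM in VNS-TAC hearts and 4.09 to 5.70 FPKM in Ctrl-TAC (limma adjusted p = 0.345). Lymphocytes and eosinophils were hardly seen: no T, NK or B cell marker exceeded 0.68 FPKM and no eosinophil marker 0.39 FPKM in any library. Of 6 mast cell and basophil markers detected, 1 was without overlap and lower (Kit) and none higher, against 14.8% and 6.1% of all detected genes. Kit was at 0.68, 0.36 and 0.37 FPKM in VNS-TAC hearts and at 1.89, 1.02 and 1.54 FPKM in Ctrl-TAC. Tpsb2 alone had a mean of at least 1 FPKM, at 0.51 to 1.43 FPKM in VNS-TAC hearts and 1.40 to 2.17 FPKM in Ctrl-TAC (limma adjusted p = 0.314). Of the 8 cardiomyocyte markers, Tnnt2 was without overlap and higher, at 7995 to 15150 FPKM in VNS-TAC hearts and 7014 to 7657 FPKM in Ctrl-TAC (limma adjusted p = 0.381), while Pln and Myl3 overlapped (limma adjusted p = 0.50 and 0.564).

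**Figure D5:**
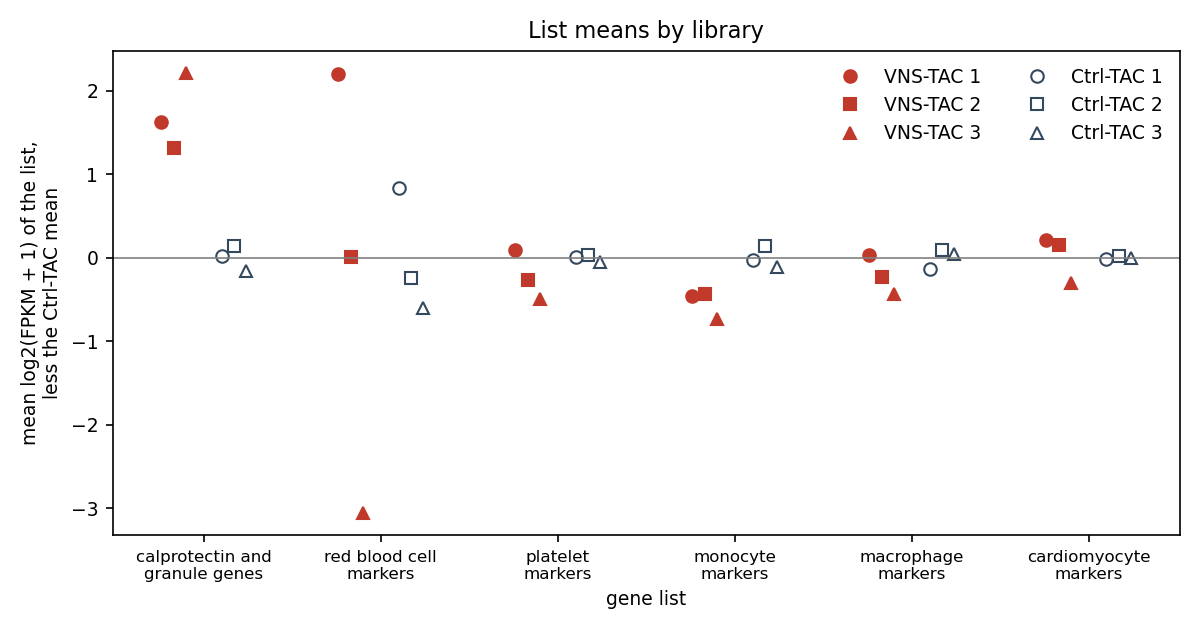
Mean log2(FPKM + 1) of each list in each library, less its mean over the 3 Ctrl-TAC libraries, for VNS-TAC (filled red) and Ctrl-TAC (open dark). The first list keeps all 10 genes, while the others use genes averaging at least 1 FPKM. That leaves 4 of 9 monocyte markers and 2 of 7 platelet markers. It drops Ly6c2, Plac8 and Gp9, higher without overlap, and Cx3cr1, lower without overlap. The median monocyte marker difference was -0.56 over the 4 and -0.17 over all 9. The neutrophil genes stand at 1.63, 1.32 and 2.22 in VNS-TAC 1, 2 and 3, while the red cell markers stand at 2.21, 0.01 and -3.06.

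The genes whose pattern over the 6 libraries was most like the mean of the members were Pard6b, Klk1b26, Rnps1, Mlycd, Samm50, Alox12, Fibp, Ptpru, Mcrs1 and Cdh22, with Pearson correlations of 0.987 to 0.998 over 6 libraries, out of 11390 genes compared. The libraries fall into 2 groups, so any gene with a gap between them scores high here. Their differences ran from 0.26 for Pard6b to 1.68 for Klk1b26 on the log2(FPKM + 1) scale. Pard6b, a cell polarity gene, stood at 1.3, 1.18 and 1.38 FPKM in VNS-TAC 1, 2 and 3. In Ctrl-TAC 1, 2 and 3 it stood at 0.89, 0.95 and 0.90 FPKM. Mlycd, malonyl-CoA decarboxylase of fatty acid metabolism, stood at 73.1 to 85.4 FPKM in VNS-TAC hearts and 56.7 to 59.7 FPKM in Ctrl-TAC. Klk1b26, a kallikrein of a family of close copies, stood at 2.45, 1.79 and 3.93 FPKM in VNS-TAC hearts and at 0.16, 0.25 and 0 FPKM in Ctrl-TAC. Among the members themselves, the correlation of each with the mean of the other 9 ran from 0.739 for Ltf and 0.867 for Mmp8 to 0.978 for S100a9.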

How the data were processed

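The deposited table gives FPKM values per the file headers, to 2 decimals, for 18019 NCBI gene IDs in 6 columns. The submitters' processing notes name HISAT, featureCounts 1.5.0-p3, DESeq 1.8.3 and GRCm38 but no roles, and neither annotation nor strand setting is given in the sources used here. Poly(A) RNA was enriched on oligo-dT beads, per the labels' protocols. Groups come from the titles, because the treatment tag reads VNS for all 6 samples. Ctrl-TAC columns match library names; VNS-TAC columns are numbered 1 to 3 where the labels have 4 to 6, so they keep the table's numbers. Symbols came from RefSeq (GRCm38.p6) for 17890 IDs.

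Values were analysed as log2(FPKM + 1), which understates changes of low genes. Genes averaging at least 1 FPKM were compared with limma 3.58.1 in R 4.3.3 (intensity trend, Benjamini-Hochberg over 11422 genes, threshold 0.05), checked on simulated data. Standard errors of the members in the text come from that fit. Fragments were estimated from the steps of low values and GENCODE exon lengths, were used in no test, and give counting precision only roughly. Members and lists were chosen with earlier results of these data known. Named from the lists are genes at an unadjusted p under 0.05, filled up to 3 by smallest p, all detected azurophil genes and the 10 most alike genes; others illustrate roles and were named after their values were seen. Python 3.11.15, pandas 2.3.3, numpy 2.4.6 and matplotlib 3.10.9 were used. Alternatives were other pseudocounts, filters, scalings, limma without trend or robust, and each library left out.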

Additional observations from a re-analysis of the deposited data

How the results depend on the processing

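No gene of the table passed the adjusted threshold of 0.05 as reported. The count was 1 (S100a9) when genes under 5 FPKM on average were left out, 1 (S100a9) with size factors and 1 (S100a9) with quantile normalization. It ranged from 0 to 3 with a library left out, at 3 without VNS-TAC 3 (S100a8, S100a9 and H2ac19) and 3 without Ctrl-TAC 1 (Hspa1b, Fosb and Ccl21b), and was 0 in the other alternatives run. S100a8 and S100a9 were chosen on these values, so these calls are no test of them. The median difference of the 10 members, 1.29, was 2.91 with a pseudocount of 0.1 and 1.90 with 0.5. Without VNS-TAC 3, Lcn2 was at 1.64 against 2.58 and Mmp8 at 0.54 against 0.86; without VNS-TAC 1, Ltf was at 0.43 against 0.65.

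Medians of several other lists changed sign. Without a filter the surface receptors were at 0.119 (-0.10 as reported), recruitment factors at -0.0135 (0.013) and platelet markers at 0.0095 (-0.22). There the fold change of each gene stayed the same and the median took in all detected genes. These were 20 surface receptors in place of 8, 14 recruitment factors in place of 5, and 7 platelet markers in place of 2. For the other alternatives the cause was not tested. With quantile normalization, surface receptors were at 0.011, other S100 genes at -0.073 (0.052) and cardiomyocyte markers at -0.023 (0.028). With the same sum in every library, recruitment factors were at -0.034, other S100 genes at -0.025 and cardiomyocyte markers at -0.048. With a library left out, the other specific, gelatinase and secretory granule genes ranged from -0.074 to 0.298, recruitment factors from -0.243 to 0.216, calprotectin receptors from -0.294 to 0.059, other S100 genes from -0.114 to 0.118, red cell markers from -1.81 to 1.13 (-0.35 as reported) and cardiomyocyte markers from -0.111 to 0.274.

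No paired analysis was possible because the VNS-TAC columns are numbered 1 to 3 and their labels 4 to 6, so which titled sample each column holds is not settled. The titles share replicate numbers, but the groups received different viruses and the labels used here state no pairing of mice. With 3 libraries a group and a few fragments behind Ly6g and behind the Ctrl-TAC values of Ngp, Camp and Ltf, the size of those differences is poorly resolved.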

Other observations

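Camp, Ngp and Ltf lie within 1195.4 kb of chromosome 9 (109847377 to 111042766, GRCm38), with 570.4 kb between Camp and Ngp and 596.3 kb between Ngp and Ltf. This stretch was looked at after the values of the 3 genes were seen. Of the 27 other genes of the table in it, 26 were detected, 3 were without overlap and higher in VNS-TAC (Pth1r, Scap and Cdc25a) and 1 lower, where 6.1% and 14.8% of all detected genes were so arranged. Their median difference was -0.03 on the log2(FPKM + 1) scale. Pth1r, the parathyroid hormone receptor, stood at 4.05, 5.08 and 6.52 FPKM in VNS-TAC 1, 2 and 3, and at 2.46, 2.90 and 2.04 FPKM in Ctrl-TAC 1, 2 and 3. Myl3, a myosin light chain of heart muscle that lies in the same stretch, stood at 7501 to 11750 FPKM in VNS-TAC hearts and 7421 to 8315 FPKM in Ctrl-TAC hearts.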
